A study of Sus scrofa with 6 samples.

Results

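Extracellular matrix, integrin, tetraspanin, cadherin, connexin and ADAM protease genes were followed in mature pig oocytes on Affymetrix porcine arrays. The members were all probe sets whose single gene symbol in the platform annotation began with one of a fixed set of family names, such as collagens (COL), laminins (LAM), integrins (ITG), tetraspanins (TSPAN) and ADAM. They numbered 128 probe sets for 75 genes, of 10069 probe sets with a single symbol. The rule that picks them reads symbols only, though the families were proposed with earlier results of these data known. The letters also caught ITGB1BP2, an integrin-binding protein and no integrin, and ADAMDEC1, and 4 further probe sets were left out because they carried several symbols.

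Oocytes of adult females (sows) made up one group of 3 arrays and those of prepubertal females (gilts) the other group of 3. Follicles of 2 to 6 mm supplied the oocytes, which were matured in culture for 42 to 44 h, were stripped of cumulus cells with hyaluronidase and vortexing, and were checked for the first polar body. The labels call the adult oocytes developmentally competent and the prepubertal ones incompetent, so the comparison asks which of these mRNAs differ between the groups. The replicates are labelled biological, but breed, and how many oocytes and animals went into an array, were not found in the labels. The p-values thus cover the variation among these 6 samples.

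Matrix proteins such as collagens, fibronectin and laminins form the fibres and sheets that cells attach to. Integrins are paired alpha and beta chains that bind that matrix, and tetraspanins are membrane proteins that gather integrins and proteases into patches. Cadherins and connexins join neighbouring cells, in the follicle the oocyte and the cumulus cells around it, and ADAM proteases cut proteins at the cell surface. In the egg, CD9, a tetraspanin, is known for its part in sperm-egg fusion.

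The deposited values are MAS5 signals, 1 per probe set and array. Their means, trimmed by 2% at each end, lay between 105 and 159.9 over the arrays, 141 ± 19.4 in adult and 116 ± 12.9 in prepubertal oocytes (SD, n = 3 arrays each, exact permutation p = 0.2, 2-sided, with 0.1 the smallest possible). Levels below are therefore quantile-normalized signals, and differences are log2 values of prepubertal minus adult oocytes, unless called deposited. Over all 12000 tested probe sets, normalization moved the median log2 difference from −0.20 to −0.0073. Where 3 signals are listed for a group, they follow the order of replicates 1, 2 and 3. Prepubertal replicate 1 stood apart: it correlated at 0.976 with each adult array and at 0.968 and 0.971 with the other prepubertal arrays, across genes, which are not independent replicates. Of 9 measured oocyte genes, 7 lay above background on all 6 arrays, ZP2, ZP3, ZP4, GDF9 and BMP15 among them, while DDX4 and KIT did not.

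Above background in both groups stood 12 of the 128 probe sets. Background was taken as the 95th percentile, on each array, of the deposited signals of 97 probe sets of genes restricted to other tissues, such as milk, muscle, liver and lung proteins. This bound lay between 37.1 and 59.2. The 12 probe sets belonged to 11 genes: LAMB1, LAMC1, ITGAV, ITGB1, CD81, TSPAN3, TSPAN13, TSPAN14, TSPAN17, CDH1 and, with 2 probe sets, ADAM17. They were 9.38% of the members, where 29.9% of all probe sets with a single symbol stood above background in both groups. A further 4 probe sets (FN1, ITGA2, ITGB5 and TSPAN7) passed the bound on all adult arrays only and 1 (COL6A2) on all prepubertal arrays only, and 105 of 128 passed it on 0 of 6 arrays. No probe set of 53 of the 75 genes passed it on any array. A signal depends on a probe set's own probes, so levels are not ranked between genes, and a signal below the bound does not show that a transcript is absent. Each array gives 1 bulk signal, in which fewer cells that carry a transcript and less of it per cell cannot be told apart.

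**Figure D1:**
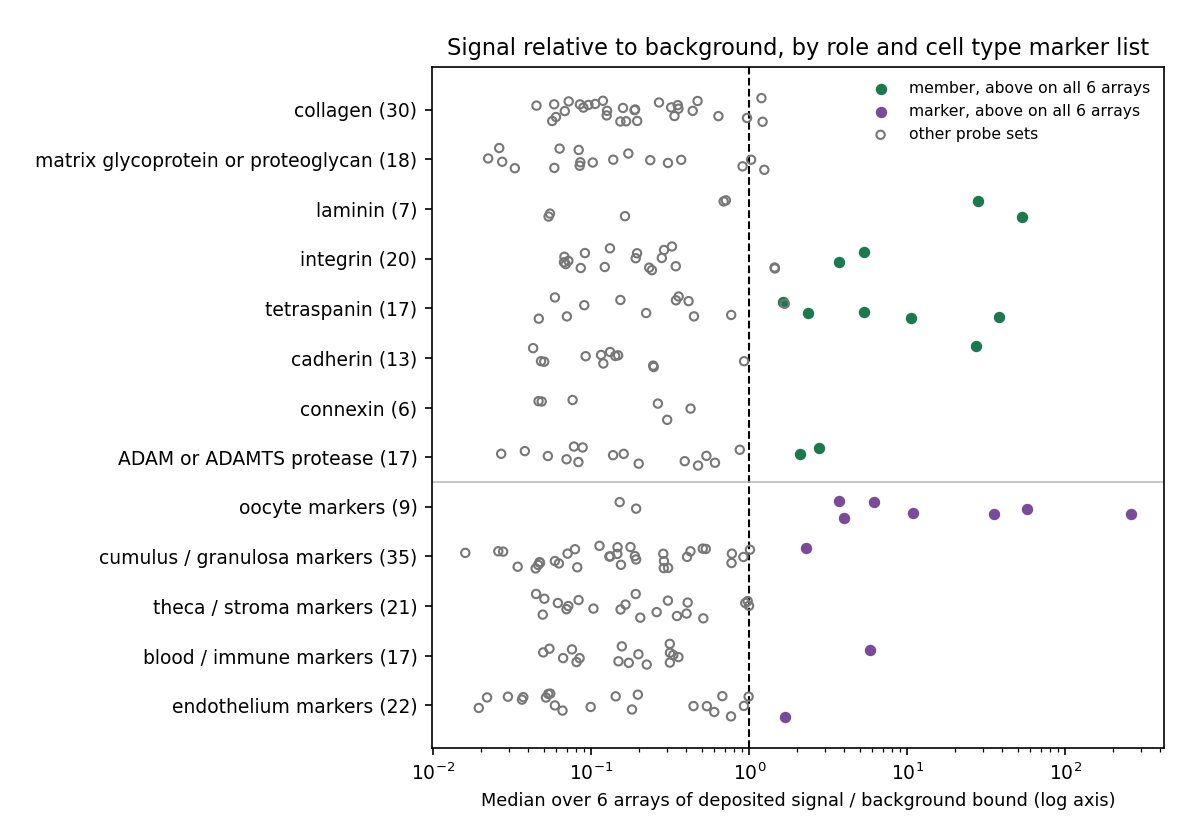
Each point is 1 probe set, placed by the median over 6 arrays of its deposited signal divided by that array's background bound (log axis); the dashed line marks the bound, rows are the roles of the member genes and, below the grey line, cell type marker lists, with the number of probe sets in brackets. Filled points lay above the bound on all 6 arrays: 12 of 128 member probe sets, none of them a collagen or a connexin, and 7 of 9 oocyte markers.

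0 of the 42 members bright enough to be tested, those at or above the median log2 level of all probe sets, passed a limma adjusted p of 0.05, where 0.117% of all 12000 tested probe sets passed. The lowest adjusted p of a member was 0.384. At an unadjusted p under 0.05 there were 3 members with higher values in prepubertal oocytes (CDH1, CD81 and TSPAN14) and 3 with lower values (COL3A1, COL5A1 and ITGA2), beside 5.06% and 5.79% of all tested probe sets. The groups did not overlap in 7 of 42 members, 16.7%, against 16.3% of all tested probe sets. The median log2 difference of the members was 0.071 as against −0.0073 for all probe sets, with 25 values above 0 and 17 below. These shares lay near those of all probe sets.

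On the values as deposited 0 members passed as well (0.475% of all probe sets did), with 5 lower and 0 higher at an unadjusted p under 0.05 (13.6% and 1.14% of all). There 3 members had groups without overlap, beside 18.9% of all. Without prepubertal replicate 1, 0 members passed, beside 1.68% of all probe sets, with 4 higher and 4 lower at an unadjusted p under 0.05 (7.32% and 8.22% of all) and 15 with groups without overlap (33.4% of all). In that fit CDH1 had the lowest adjusted p of a named member, 0.0501. Leaving out each of the 6 arrays in turn gave 0 members past the adjusted threshold, 1 to 4 higher and 0 to 4 lower at an unadjusted p under 0.05, and 9 to 15 without overlap. With an array fewer, groups without overlap were also more frequent over all probe sets, 33.4% in the fit above against 16.3% with 6 arrays. That share is not given for the other fits, so their counts are not read as a result about the members.

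**Figure D2:**
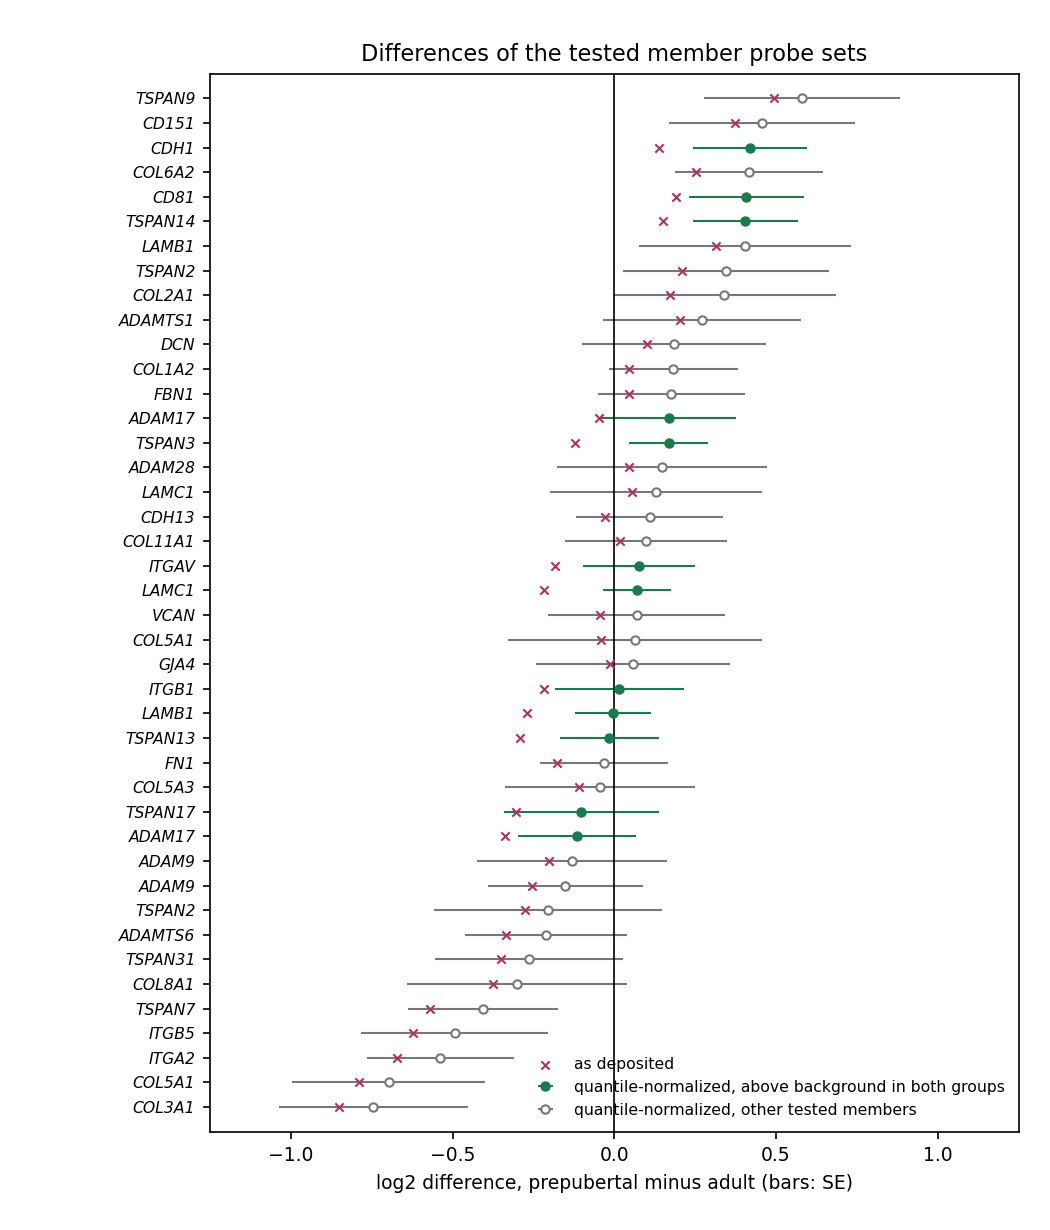
The log2 difference of prepubertal minus adult oocytes is shown for each of the 42 tested member probe sets, 1 row per probe set; circles are quantile-normalized values with bars for the SE, filled where the probe set lay above background in both groups, and crosses are the values as deposited. The circles lie between −0.74 (COL3A1) and 0.58 (TSPAN9), and the crosses of 9 members fall on the other side of 0.

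Among matrix proteins, those above background in both groups were 2 laminin chains, each with 1 of its probe sets. Laminins are 3-chain proteins of basement membranes, and LAMB1 and LAMC1 encode a beta and a gamma chain that occur together in many of them. LAMB1 had signals of 2479, 2127 and 2311 (adult) against 2385, 2556 and 1980.0 (prepubertal). The groups overlapped fully, with a log2 difference of −0.0044 (adjusted p = 0.993) and a 95% interval of −0.26 to 0.25. Its deposited signal was at least 33.2 times the background bound on every array.

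LAMC1 had signals of 1256, 1251 and 1236 (adult) against 1271, 1343 and 1322 (prepubertal). All 3 prepubertal values lay above the adult ones, by a small margin: the log2 difference was 0.071 ± 0.11 (SE, adjusted p = 0.854), with a 95% interval of −0.16 to 0.30. As deposited it was −0.22, so LAMC1 has no direction that holds under both scalings. The other probe sets of both genes lay below the bound. The second LAMB1 probe set reached 0.99 times the bound at most, with a log2 difference of 0.40 (adjusted p = 0.683) that was 0.057 (adjusted p = 0.967) without adult replicate 3. The 3 other LAMC1 probe sets reached 0.31, 0.25 and 0.82 times. The third laminin gene, LAMB2, had 1 probe set, which also stayed below the bound on all arrays.

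Collagens were near or below background. Of 30 probe sets for 15 collagen genes, 0 passed the bound in both groups and 26 passed it on no array. The others were COL1A2, COL2A1, COL3A1 and COL6A2, with 3, 4, 1 and 5 of 6 arrays above it. COL6A2, a chain of the beaded filaments of collagen VI, had signals of 36.5, 51.6 and 49.4 (adult) against 53.6, 56.8 and 92.8 (prepubertal). All prepubertal values were above the adult ones, and replicate 3 was the highest, but the log2 difference of 0.42 ± 0.23 (SE, adjusted p = 0.53) did not pass the threshold. Without that array it was 0.21 (adjusted p = 0.846). As deposited the COL6A2 groups overlapped, at a log2 difference of 0.25 (adjusted p = 0.654). COL1A2, a chain of the main fibre-forming collagen, had signals of 42.4, 37.4 and 47.2 (adult) against 54.2, 48.8 and 47.3 (prepubertal) for its tested probe set. These groups also did not overlap, at a log2 difference of 0.18 (adjusted p = 0.776). As deposited they overlapped, at 0.045 (adjusted p = 0.95). A second COL1A2 probe set, too dim to be tested, had signals of 5.86, 13.1 and 18.5 (adult) against 3.06, 1.79 and 3.14 (prepubertal). Its groups were separate in the opposite direction, at −0.59 (adjusted p = 0.542) in the limma fit with no filter on dim probe sets. COL1A2 thus has no direction shared by its probe sets.

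The lowest log2 difference among the 42 tested members was in COL3A1, another fibre-forming collagen, which had signals of 41.3, 28.9 and 43.3 (adult) against 26.9, 5.51 and 19.1 (prepubertal). The groups did not overlap, and the log2 difference was −0.74 ± 0.29 (SE, adjusted p = 0.384). Without prepubertal replicate 2 it was −0.46 (adjusted p = 0.608), nearer 0 than that of COL5A1 in the same fit, −0.73 (adjusted p = 0.542). COL3A1 passed the bound on 1 adult array only. A probe set of COL5A1, a minor fibre collagen, had signals of 44.2, 27.3 and 16.4 (adult) against 15.1, 12.4 and 6.36 (prepubertal). The groups did not overlap. Its log2 difference was −0.70 ± 0.30 (SE, adjusted p = 0.42), and no array passed the bound. A second tested COL5A1 probe set had a log2 difference of 0.064 (adjusted p = 0.969). The 4 other COL5A1 probe sets were too dim to be tested. In the limma fit with no filter on dim probe sets, the lowest of them was at −0.55 (adjusted p = 0.542), with groups that did not overlap. The others were at 0.24, 0.17 and 0.38 (adjusted p = 0.892, 0.853 and 0.727), with overlapping groups. COL5A1 thus has no direction shared by its probe sets.

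Secreted matrix glycoproteins and proteoglycans had 18 probe sets for 7 genes, and 15 of these passed the bound on no array. Fibronectin, FN1, which links integrins to collagen, had signals of 50.8, 54.0 and 62.2 (adult) against 61.8, 56.0 and 45.3 (prepubertal) for its tested probe set. The groups overlapped, with a log2 difference of −0.03 (adjusted p = 0.97), and 3 other FN1 probe sets lay below the bound everywhere. VCAN, the proteoglycan versican that cumulus cells build into their expanding coat, had signals of 44.9, 42.4 and 50.8 (adult) against 76.1, 25.6 and 55.7 (prepubertal) for its tested probe set. Prepubertal replicate 1 was the highest and replicate 2 the lowest of the 6, and the log2 difference was 0.070 (adjusted p = 0.952). The other 4 VCAN probe sets, and all probe sets of DCN (decorin), LUM (lumican), SPARC and SPARCL1, passed the bound on no array. FBN1, the microfibril protein fibrillin, passed it on 2 of 6 arrays with 1 of its 2 probe sets, at a log2 difference of 0.18 (adjusted p = 0.826). The tested DCN probe set had a log2 difference of 0.19 (adjusted p = 0.861).

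Markers of other follicle cells were set beside these genes, because cumulus and stromal cells also make matrix. Of 35 cumulus and granulosa marker probe sets (21 genes), 1 was above background on all arrays, INHBA, an activin subunit. Of NR5A1, a steroid-cell transcription factor, both probe sets passed the bound on 3 arrays. Of the other genes of this list, TNFAIP6, PTX3, PTGS2, FSHR, STAR and CYP19A1, picked by name, passed the bound on no array. These picks do not stand for the list, of which 9 probe sets (7 genes) were bright enough to be tested. The rest of the list is not described gene by gene. Summed over the list, the signal was 503 to 551 in adult and 438 to 602 in prepubertal oocytes (exact permutation p = 1, 2-sided). Theca and stroma markers had 0 of 21 probe sets above background, with sums of 291 to 321 and 278 to 388 (exact permutation p = 0.4). PDGFRB and DES each passed the bound on 3 of 6 arrays. Endothelial markers had 1 of 22 (EGFL7), with sums of 342 to 360 and 378 to 438 (p = 0.1, exact permutation). On deposited signals that endothelial p was 1 (exact permutation). The background list of genes of other tissues also had higher sums on the prepubertal arrays, 1856 to 2013 in adult and 2075 to 2101 in prepubertal oocytes (exact permutation p = 0.1). On deposited signals that background p was 0.5 (exact permutation). An exact permutation p of 0.1 is the smallest possible here, and the endothelial and background sums were not compared by a test. PECAM1 passed the bound on 3 and on 2 arrays with 2 of its probe sets. Blood and immune markers had 1 of 17 (HBB), with sums of 372 to 481 and 268 to 489 (exact permutation p = 0.4), and CD163 passed the bound on no array. HBB, CD3E and CD8A are named in both this list and the background list, so blood markers were partly set against themselves. The part of these cells in the signals of the members was not tested.

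Integrins came next, and 2 chains stood above background in both groups. ITGAV encodes the alpha V chain, which binds fibronectin and vitronectin. Its signals were 244, 229 and 206 (adult) against 288, 245 and 194 (prepubertal). ITGB1 encodes the beta 1 chain, the common partner of many alpha chains including alpha V, and had signals of 172, 148 and 208 (adult) against 233, 157 and 149.5 (prepubertal). Both groups overlapped for both genes, with log2 differences of 0.078 (adjusted p = 0.905) and 0.015 (adjusted p = 0.988). The 95% intervals were −0.30 to 0.45 and −0.42 to 0.45. As deposited the differences were −0.18 and −0.22, so neither has a direction that holds under both scalings. Their lowest ratios to the bound were 3.32 and 2.58.

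ITGA2 and ITGB5 passed the bound on every adult array and on 1 prepubertal array. ITGA2, the alpha chain of a collagen receptor, had signals of 66.5, 86.6 and 77.4 (adult) against 70.0, 35.2 and 42.8 (prepubertal). Prepubertal replicates 2 and 3 were the lowest of the 6, and replicate 1 lay among the adult values. The log2 difference was −0.54 ± 0.23 (SE, adjusted p = 0.417), and it lay between −0.75 (adjusted p = 0.106) without prepubertal replicate 1 and −0.38 (adjusted p = 0.642) without prepubertal replicate 2. As deposited the ITGA2 groups did not overlap, at a log2 difference of −0.67 (adjusted p = 0.229). ITGB5, a beta chain that pairs with alpha V, had signals of 73.2, 56.2 and 75.02 (adult) against 78.7, 41.1 and 22.8 (prepubertal). Prepubertal replicates 2 and 3 were again the lowest and replicate 1 was the highest of the 6, with a log2 difference of −0.49 ± 0.29 (SE, adjusted p = 0.557). Leaving out single arrays moved it between −0.83 (adjusted p = 0.121) without prepubertal replicate 1 and −0.19 (adjusted p = 0.879) without prepubertal replicate 3.

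The other integrin probe sets were dim. ITGA6, the alpha chain of a laminin receptor known on mammalian eggs, reached 0.57 times the bound at most. The remaining 15 probe sets, for ITGA2, ITGA2B, ITGA5, ITGA8, ITGAM, ITGB2, ITGB3, ITGB7 and ITGB1BP2, passed the bound on no array. ITGAM and ITGB2 form a receptor of white blood cells and ITGA2B is the platelet chain.

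Tetraspanins had the largest count of probe sets above background in both groups, 5 of 17, beside 2 of 7 for laminins. Of all probe sets with a single symbol, 29.9% stood above background in both groups. The tetraspanin count is therefore not read as a result about this role. TSPAN3 had signals of 1570.3, 1714 and 1616 (adult) against 2158, 1608 and 1783 (prepubertal), with a log2 difference of 0.17 (adjusted p = 0.647). TSPAN13 had signals of 555, 442 and 394 (adult) against 463, 473 and 428 (prepubertal), with a log2 difference of −0.016 (adjusted p = 0.982). Both overlapped between the groups, and as deposited the differences were −0.12 and −0.29. TSPAN17 had signals of 86.9, 58.2 and 94.5 (adult) against 54.1, 103 and 65.8 (prepubertal), widely spread in both groups, with a log2 difference of −0.10 (adjusted p = 0.912).

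TSPAN14 and CD81 had higher values on all prepubertal arrays. TSPAN14 belongs to a group of tetraspanins that escort the protease ADAM10 to the cell surface, and had signals of 169.7, 208 and 222 (adult) against 277, 287 and 242 (prepubertal). The group means were 199.8 ± 27.1 in adult and 269 ± 23.7 in prepubertal oocytes (SD, n = 3 arrays each), a log2 difference of 0.41 ± 0.16 (SE, adjusted p = 0.391). CD81, a relative of CD9 that also takes part in sperm-egg fusion in mice, had signals of 108, 92.8 and 90.8 (adult) against 155, 114 and 136 (prepubertal). The group means were 97.1 ± 9.14 in adult and 135 ± 20.6 in prepubertal oocytes (SD, n = 3 arrays each), a log2 difference of 0.41 ± 0.18 (SE, adjusted p = 0.436). The 95% intervals, 0.053 to 0.76 and 0.021 to 0.80, lay above 0 before adjustment over all probe sets and neither gene passed after it. As deposited the differences were 0.15 and 0.19, with overlapping groups.

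TSPAN7 had signals of 89.5, 74.7 and 85.8 (adult) against 59.1, 39.0 and 85.4 (prepubertal). Adult values were close together, prepubertal replicates 1 and 2 were below them and replicate 3 among them, and the log2 difference was −0.41 (adjusted p = 0.544). Without prepubertal replicate 2 it was −0.18 (adjusted p = 0.828). CD9 was represented by 1 probe set, with signals of 23.9, 2.14 and 1.11 (adult) against 2.25, 1.52 and 2.64 (prepubertal). Adult replicate 1 was the highest, and it reached 0.49 times the bound, so CD9 was not above background on any array. CD151, a partner of laminin-binding integrins, had signals of 11.4, 17.6 and 11.04 (adult) against 26.2, 35.8 and 13.5 (prepubertal), also below the bound on all arrays, with a log2 difference of 0.46 (adjusted p = 0.585), and 0.27 (adjusted p = 0.828) without prepubertal replicate 2. TSPAN9 had the largest positive difference among the 42 tested members, 0.58 ± 0.30 (SE, adjusted p = 0.508), from dim signals of 6.40, 10.6 and 16.7 (adult) against 12.6, 29.7 and 33.8 (prepubertal). The other TSPAN9 probe set and those of TSPAN5, TSPAN33, TSPAN12, TSPAN2 and TSPAN31 passed the bound on no array. TSPAN5 and TSPAN33 are of the same ADAM10-escorting group as TSPAN14 and TSPAN17.

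**Figure D3:**
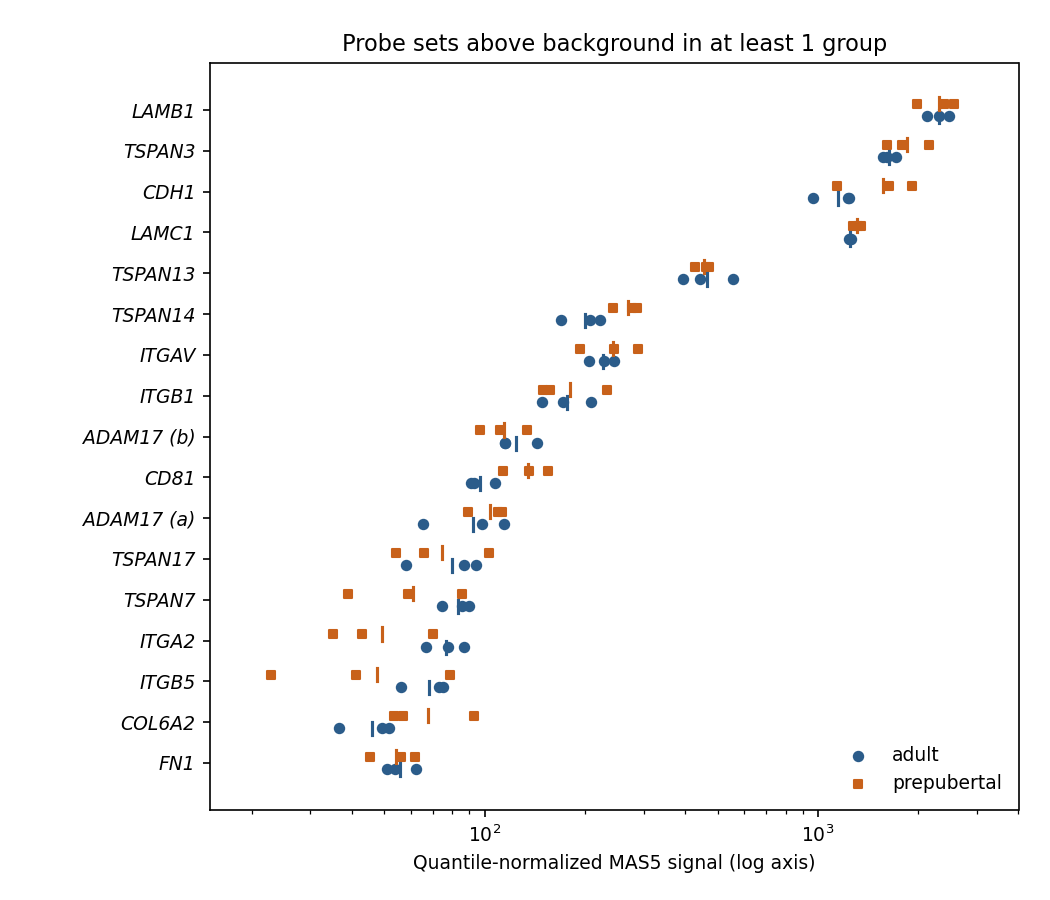
Quantile-normalized MAS5 signal (log axis) of the 17 member probe sets above background in at least 1 group, 1 row each, with circles for the 3 adult and squares for the 3 prepubertal arrays and short vertical lines for the group means; letters in brackets tell apart 2 probe sets of a gene. All prepubertal values lie above all adult values for LAMC1, TSPAN14, CD81 and COL6A2, and the groups overlap in the other rows.

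CDH1, which encodes E-cadherin, the adhesion protein that joins oocytes to follicle cells and later the cells of the early embryo, was the 1 cadherin above background. Its signals were 1239.7, 964 and 1235 (adult) against 1141, 1916 and 1634 (prepubertal). Prepubertal replicate 1 lay among the adult values and replicates 2 and 3 above them. The group means were 1146 ± 158 in adult and 1564 ± 392 in prepubertal oocytes (SD, n = 3 arrays each), with a log2 difference of 0.42 ± 0.18 (SE, adjusted p = 0.413) and a 95% interval of 0.038 to 0.80. Leaving out single arrays moved it between 0.63 (adjusted p = 0.0501) without prepubertal replicate 1 and 0.26 (adjusted p = 0.683) without prepubertal replicate 2, and as deposited it was 0.14. A second CDH1 probe set stayed below the bound on all arrays. CDH13 passed the bound on 1 array, with a log2 difference of 0.11 (adjusted p = 0.898), and 11 of the 13 cadherin probe sets, those of CDH3, CDH5, CDH6, CDH11, CDH17 and CDH24 included, on none.

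No connexin probe set passed the bound on any array. GJA1, the main connexin of granulosa and cumulus cells, had signals of 13.4, 10.2 and 13.4 (adult) against 25.7, 0.52 and 11.1 (prepubertal), spread more widely in the prepubertal group. GJA4, known as the connexin of the oocyte's own gap junctions, had signals of 11.8, 19.8 and 15.5 (adult) against 7.15, 21.1 and 25.4 (prepubertal). It was just bright enough to be tested, with a log2 difference of 0.059 (adjusted p = 0.962), and reached 0.50 times the bound at most. GJA5, GJB1 and GJB5 were too dim to be tested.

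ADAM17 was the 1 protease gene above background. It cuts growth factors and cytokines, such as EGF-like ligands, from the cell surface. One probe set had signals of 144, 115 and 115 (adult) against 97.2, 134 and 111 (prepubertal). The other had signals of 114, 65.2 and 98.1 (adult) against 89.5, 113 and 110.0 (prepubertal). The 2 probe sets differed in sign, with log2 differences of −0.12 (adjusted p = 0.866) and 0.17 (adjusted p = 0.814), and 2 further ADAM17 probe sets were below the bound everywhere. ADAM10, the protease bound by TSPAN14, had 1 probe set, which reached 0.47 times the bound at most. ADAMTS1, which cuts versican, had a log2 difference of 0.27 (adjusted p = 0.789) for its tested probe set and passed the bound on no array. ADAMTS6 had a log2 difference of −0.21 (adjusted p = 0.803), and none of the probe sets of ADAM2, ADAM9, ADAM15, ADAM28, ADAMDEC1, ADAMTS6 and ADAMTS20 passed the bound on any array.

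Partners of these genes outside the name rule were read in the same fit. Of 25 measured genes of matrix assembly and turnover, 12 were tested and 0 passed the adjusted threshold in either direction, with 1 higher and 0 lower at an unadjusted p under 0.05 (median log2 difference 0.13). The smallest p-values belonged to the protease inhibitor TIMP2 (log2 difference 0.46, adjusted p = 0.455) and to P4HA2, a collagen prolyl hydroxylase (log2 difference 0.34, adjusted p = 0.567). PCOLCE2, an enhancer of collagen trimming, was one of 3 such genes above background in both groups (log2 difference 0.058, adjusted p = 0.863). Among 17 other matrix genes 3 were tested, 0 passed, and 1 was higher at an unadjusted p under 0.05. This was NID2, which links laminin to collagen IV in basement membranes, with signals of 605 ± 112 in adult and 798 ± 69.0 in prepubertal oocytes (SD, n = 3 arrays each). NID2 was above background in both groups, with a log2 difference of 0.40 (adjusted p = 0.373), and 0.12 as deposited. MFAP2, a microfibril protein, had a log2 difference of −0.31 (adjusted p = 0.646).

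Of 15 measured matrix receptors and adhesion adaptors 12 were tested and 0 passed, with 0 at an unadjusted p under 0.05 in either direction. The collagen receptor DDR1, the kinase FYN, the actin linker VCL (vinculin) and the proteoglycan SDC2 were above background in both groups. The smallest unadjusted p-values in this list belonged to an SDC2 probe set (log2 difference 0.27, adjusted p = 0.522) and to VCL (log2 difference −0.23, adjusted p = 0.542). A second SDC2 probe set had a log2 difference of −0.052 (adjusted p = 0.936) and a dimmer VCL probe set 0.098 (adjusted p = 0.926). Of 11 junction partners 5 were tested and 0 passed. CTNNB1, the beta-catenin that ties E-cadherin to actin, had 2 probe sets above background, with log2 differences of 0.048 (adjusted p = 0.9) and 0.064 (adjusted p = 0.894). The smallest p among junction partners came from a dim CTNNB1 probe set (log2 difference −0.54, adjusted p = 0.596) and from CLDN4, a tight junction protein (log2 difference 0.36, adjusted p = 0.615). OCLN, another, was above background in both groups (log2 difference 0.0041, adjusted p = 0.996).

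Of 13 tetraspanin and gamete membrane partners 9 were tested and 0 passed, with 0 at an unadjusted p under 0.05. CD46, a complement regulator, had a log2 difference of 0.37 (adjusted p = 0.643) and CD59, another, 0.22 (adjusted p = 0.677). A second CD46 probe set had a log2 difference of 0.029 (adjusted p = 0.979). The actin-to-membrane linkers RDX and EZR and the tetraspanin CD63 were above background in both groups. PTGFRN, a known partner of CD9 and CD81, was tested, with a log2 difference of −0.14 (adjusted p = 0.88).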

How the data were processed

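The deposited values are linear MAS5 intensity signals. The authors used MAS5, per the submitters' processing notes, with version and scaling target not given in the sources used here. Beads captured the poly(A) RNA, which was, per the labels, amplified in 2 cycles and biotinylated, so signal comes mainly from transcripts with poly(A) tails, and from their 3′ ends. Every value column matched a sample (0 others).

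Of 24123 probe sets 124 controls were left out. Signals plus 16 were log2-transformed and quantile-normalized between arrays, since the deposited levels differed, and normalized signals are back-transformed. The constant damps noise and understates folds of dim genes. The 12000 probe sets at or above the median mean log2 value entered 1 fit of prepubertal minus adult oocytes (limma 3.58.1 under R 4.3.3, eBayes with a trend, 2-sided tests), and p-values were adjusted over them by Benjamini and Hochberg's method. All adjusted p-values come from limma. Intervals are 95%, from the moderated fit. A change in total oocyte mRNA is removed by this scaling. The number of arrays limits the precision.

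Symbols came from the platform annotation, and all 128 member probe sets matched RefSeq's gene table for Sscrofa11.1 by Entrez identifier, with 0 changed symbols. Coordinates are left out since no genome build goes with the signals. Named members were those above background, the 3 with the smallest p and the brightest in each role, and 23 genes chosen by name, 20 of them measured, whatever their values. The named others were the 2 genes with the smallest p in each related list, the 2 with the highest mean log2 value in each marker list, and genes above background. DDX4, KIT, the cumulus and granulosa genes named as below the bound on all arrays, and PTGFRN were picked outside these rules. COL1A1, COL4A1 and CDH2 were not analysed here. The background list named 111 genes, 80 measured, of which 3 probe sets (HBB, AHSG and AMY2) passed the bound on all arrays. Members, lists and rules were chosen with earlier results of these data known. The arrays were treated as unpaired. Deviations from group means correlated at 0.082, 0.018 and 0.028 for same-numbered arrays and between −0.058 and 0.035 for differently numbered ones. With a replicate block 32 of all 12000 tested probe sets passed the adjusted threshold, against 14 without it. These values do not settle whether the replicate numbers pair the arrays. The fit was also run on simulated data of independent normal values, with no differences in overall level between arrays. That run does not show how the fit behaves on arrays such as these. Alternatives were other scalings, constants, filters, variance models, array weights, the replicate block, background bounds and leaving out each array.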

Additional observations from a re-analysis of the deposited data

How the results depend on the processing

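No member passed the adjusted threshold under any alternative; the named members' lowest adjusted p over them was 0.0501, for CDH1 without prepubertal replicate 1. On the values as deposited 0 members were higher and 5 lower at an unadjusted p under 0.05, and 3 had groups without overlap. Centring arrays on their medians gave 0 higher, 3 lower and 3 without overlap among 42 members. Scaling to a common trimmed mean gave 4 higher, 1 lower and 8 without overlap among 43. With no filter on dim probe sets there were 5 higher, 5 lower and 14 without overlap among 128 members. With the filter at the 75th percentile there were 3 higher, 0 lower and 3 without overlap among 13. Leaving out 1 array gave 1 to 4 higher, 0 to 4 lower and 9 to 15 without overlap. The lower count fell to 1 without any one of adult replicates 1, 2 and 3 and to 0 without prepubertal replicate 2, and the higher count to 1 without adult replicate 2 or prepubertal replicate 2. Groups without overlap numbered 15, 12 and 14 without prepubertal replicates 1, 2 and 3. A replicate block gave 0 past the threshold, 3 higher, 3 lower and 7 without overlap, as without it. Shares over all probe sets are given above only for the main fit, the deposited values and the fit without prepubertal replicate 1. The other counts describe the members alone and are not read as a result about them.

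With the bound at each array's median, 25 members were above background in adult, 27 in prepubertal and 23 in both groups. With the 90th percentile these were 19, 15 and 15, and with the bound from the list without its 3 bright probe sets, chosen after seeing the data, 17, 15 and 13. Leaving out 1 array gave 16 to 19 in adult, 13 to 15 in prepubertal and 12 to 13 in both.

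The sign of small differences changed with the scaling. As deposited, the log2 difference was −0.046 for the ADAM17 probe set at 0.17 in the main setting, −0.028 for CDH13, −0.014 for GJA4, −0.18 for ITGAV, −0.22 for ITGB1 and for LAMC1, −0.043 for VCAN and −0.12 for TSPAN3. Centred on medians, it was −0.097 for ITGAV, −0.13 for ITGB1 and for LAMC1 and −0.038 for TSPAN3. FN1 was at 0.028 after trimmed-mean scaling, and ITGB1 at −0.013 with array weights. The log2 ratio of summed marker signals, prepubertal over adult, went from 0.081 to −0.033 for oocyte, from 0.00014 to −0.20 for cumulus and granulosa and from 0.13 to −0.040 for theca and stroma markers as deposited. Leaving out 1 array gave ranges across 0: −0.026 to 0.31 for that ADAM17 probe set, −0.011 to 0.25 for CDH13, −0.11 to 0.31 for GJA4, −0.048 to 0.22 for ITGAV, −0.17 to 0.13 for ITGB1, −0.082 to 0.10 for LAMB1, −0.17 to 0.41 for the dim LAMC1 probe set, −0.041 to 0.32 for DCN, −0.11 to 0.065 for FN1, −0.18 to 0.39 for VCAN, −0.12 to 0.12 for TSPAN13 and −0.32 to 0.063 for TSPAN17. The cause of these changes was not tested. Dim signals limit the differences of most members.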

Other observations

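Among members too dim to be tested, chosen here after their values were seen, 1 of 3 ITGA8 probe sets (the alpha chain of an integrin of mesenchymal cells) had normalized signals of 7.67, 8.22 and 7.34 (adult) against 29.1, 28.9 and 23.7 (prepubertal). The groups did not overlap, and the values reached 0.62 times the background bound at most. The 2 other ITGA8 probe sets overlapped between the groups. CDH6, a cadherin, had signals of 13.9, 17.3 and 16.2 (adult) against 10.7, 0.74 and 2.17 (prepubertal), also without overlap and below the bound. In the limma fit with no filter on dim probe sets the log2 differences were 0.86 ± 0.27 (SE, adjusted p = 0.444) for this ITGA8 probe set, 0.92 (adjusted p = 0.551) for the dim CDH1 probe set and −0.66 ± 0.25 (SE, adjusted p = 0.551) for CDH6. After trimmed-mean scaling this ITGA8 probe set was bright enough to be tested, at 0.92 (limma adjusted p = 0.208).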
